A study of Mus musculus with 4 samples.

Results

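The 10 genes described here encode the machinery that governs the start of the cell division cycle. They are the D cyclins Ccnd1, Ccnd2 and Ccnd3, the kinases Cdk4 and Cdk6, the kinase inhibitors Cdkn1a, Cdkn1b, Cdkn1c and Cdkn2c, and the retinoblastoma gene Rb1. They were chosen by symbol from the 31053 genes measured, with earlier results of these data known. In particular, a higher Ccnd1 beside a Ccnd2 that was not higher was part of the choice. All values of these 10 genes between genotypes are therefore descriptions, and none was tested.

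Bone marrow of 2 genotypes of mice was profiled by droplet single-cell RNA sequencing that reads the 3′ ends of transcripts. Control mice carried the Vav1-Cre transgene (Vav1-Cre/+), and STAT5 knockout (STAT5 KO) mice carried it together with floxed Stat5a and Stat5b (Vav1-Cre/+STAT5abfl/fl), so both genotypes share the transgene. Vav1-Cre is active in blood cells, and it therefore models the loss of Stat5a and Stat5b in blood cells and not in stroma. From each genotype there is 1 library of lineage-negative, c-Kit-positive, Sca-1-positive blood stem and progenitor cells (KLS) from mice of 8 to 12 weeks, and 1 library of CD45-negative, CD140a-positive, Sca-1-positive stromal cells (called MSC) from mice of 6 to 8 weeks. The labels name 4 mice for the KLS sort without saying whether that is per genotype, give no number for the stromal sort, and do not tell the mice of a library apart. With 1 library per group the genotype cannot be told apart from the mice or the preparation, and no test between genotypes was possible. Intervals cover counting error only.

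D cyclins are made in response to growth factors and bind Cdk4 or Cdk6. The active complex phosphorylates the retinoblastoma protein, which then releases E2F transcription factors and lets the cell enter S phase. The inhibitors come in families: the Cip/Kip proteins (Cdkn1a, Cdkn1b, Cdkn1c) bind many cyclin-kinase complexes, while the Ink4 proteins (Cdkn2c among them) bind Cdk4 and Cdk6. In blood stem cells Cdkn1c is known as a keeper of quiescence, and D cyclins are known targets of cytokine signals, which STAT5 relays.

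After filtering, 3085 control and 6726 STAT5 KO cells were kept in the KLS libraries, with a median of 15136 and 10085 unique molecular identifiers (UMIs, each standing for 1 captured transcript) per cell. The MSC libraries kept 578 and 374 cells at 2738 and 2496 UMIs. Between 200 and 393 barcodes of each library were shared with another library, and 17 to 388 of these held more UMIs elsewhere and were left out. Stat5a was at 68.5 UMIs per 1000000 (CPM) in control KLS cells and 6.74 CPM in those of STAT5 KO, and Stat5b at 60.8 and 4.49 CPM. A Stat5a or Stat5b UMI was present in 454 STAT5 KO KLS cells (6.75%). In KLS cells Kit was at 210.1 and 177.7 CPM and the stromal marker Pdgfra at 0 in both libraries, while in the MSC libraries Pdgfra was at 286.0 and 236.0 CPM. Heat shock genes differed between the KLS libraries too: all 10 that were measured were higher in STAT5 KO, with a median log2 ratio of 0.45 and Hspa1b highest at 1.91. The median share of mitochondrial UMIs was 4.44% in control and 2.91% in STAT5 KO. The part of these differences in the results below was not tested.

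Promoter windows from RefSeq (GRCm38.p6), 250 bases before to 50 bases after a start site, were found for 6 of the 10 genes. These made 9 windows in all. No window was found for Ccnd1, Ccnd2, Cdkn1c or Rb1, so no motif was searched for in their promoters. For 3 genes a window is printed, since they stand for the roles in the results: a D cyclin, its kinase partner and an inhibitor. Capitals mark the GC box GGGCGG, or its reverse complement, and the E box CACGTG.
Ccnd3 (chr17:47504801-47505100, plus strand): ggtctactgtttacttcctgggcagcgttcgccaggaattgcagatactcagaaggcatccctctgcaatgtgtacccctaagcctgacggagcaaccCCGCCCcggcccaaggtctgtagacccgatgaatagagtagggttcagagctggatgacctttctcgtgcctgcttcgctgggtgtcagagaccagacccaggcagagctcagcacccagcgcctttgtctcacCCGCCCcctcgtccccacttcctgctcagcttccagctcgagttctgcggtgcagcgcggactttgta
Cdk6 (chr5:3343643-3343942, plus strand): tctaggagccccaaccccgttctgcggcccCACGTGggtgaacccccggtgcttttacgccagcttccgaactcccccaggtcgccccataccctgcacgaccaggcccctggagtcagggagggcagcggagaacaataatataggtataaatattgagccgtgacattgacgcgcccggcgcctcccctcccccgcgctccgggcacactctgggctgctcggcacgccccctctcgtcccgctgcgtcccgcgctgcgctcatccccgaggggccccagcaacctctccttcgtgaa
Cdkn1a (chr17:29093519-29093818, plus strand): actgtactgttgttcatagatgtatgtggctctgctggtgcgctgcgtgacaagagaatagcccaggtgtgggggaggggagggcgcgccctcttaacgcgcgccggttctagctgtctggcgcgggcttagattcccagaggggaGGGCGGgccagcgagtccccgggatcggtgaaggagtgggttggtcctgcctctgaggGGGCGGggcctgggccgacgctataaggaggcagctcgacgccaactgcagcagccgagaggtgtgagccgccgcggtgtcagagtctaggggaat

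On either strand, the STAT motif TTCNNNGAA was in 0 of the 9 windows and in 8.30% of the 32851 mouse promoter windows of the same length. The GC box was in 6 of the 9 windows against 35.7% of all windows, and the E box in 3 of 9 against 7.15%. These matches describe letters within short windows, and a window without a motif says only that its letters are not in those bases.

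Over all KLS cells the D cyclins differed in their balance, while their sums lay close together. In some groups of KLS cells, described below, the sums lay further apart. Ccnd1, the D cyclin known for its tie to mitogen signals, was at 22.6 CPM in the control library (95% Poisson interval 21.3 to 23.9) and at 55.0 CPM in the STAT5 KO library (53.4 to 56.7). It was thus 2.43-fold higher in STAT5 KO, a log2 ratio of 1.28 with a counting interval of 1.19 to 1.38. Ccnd2, the most abundant D cyclin of these cells, was at 272.1 CPM in control against 234.0 CPM in STAT5 KO, a log2 ratio of -0.22 (-0.25 to -0.19). Ccnd3, which is known for its part in lymphoid and erythroid growth, was at 126.9 and 131.2 CPM, a log2 ratio of 0.05 (0.00 to 0.09). The 3 D cyclins together made up 421.7 CPM in control against 420.2 CPM in STAT5 KO.

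Within that sum, which does not depend on the scaling to library size, Ccnd1 took 5.36% of the D cyclin UMIs in control and 13.1% in STAT5 KO, a difference of 7.73 percentage points (7.25 to 8.21). Ccnd2 took 64.5% and 55.7%, while Ccnd3 took 30.1% and 31.2%. These shares make up a whole, so a larger Ccnd1 share has to go with a smaller share elsewhere. Here the Ccnd2 share was smaller in STAT5 KO, and the Ccnd3 share differed by 1.12 points. Levels of different genes are compared here per transcript end, on the CPM scale, and capture can differ between genes.

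**Figure D1:**
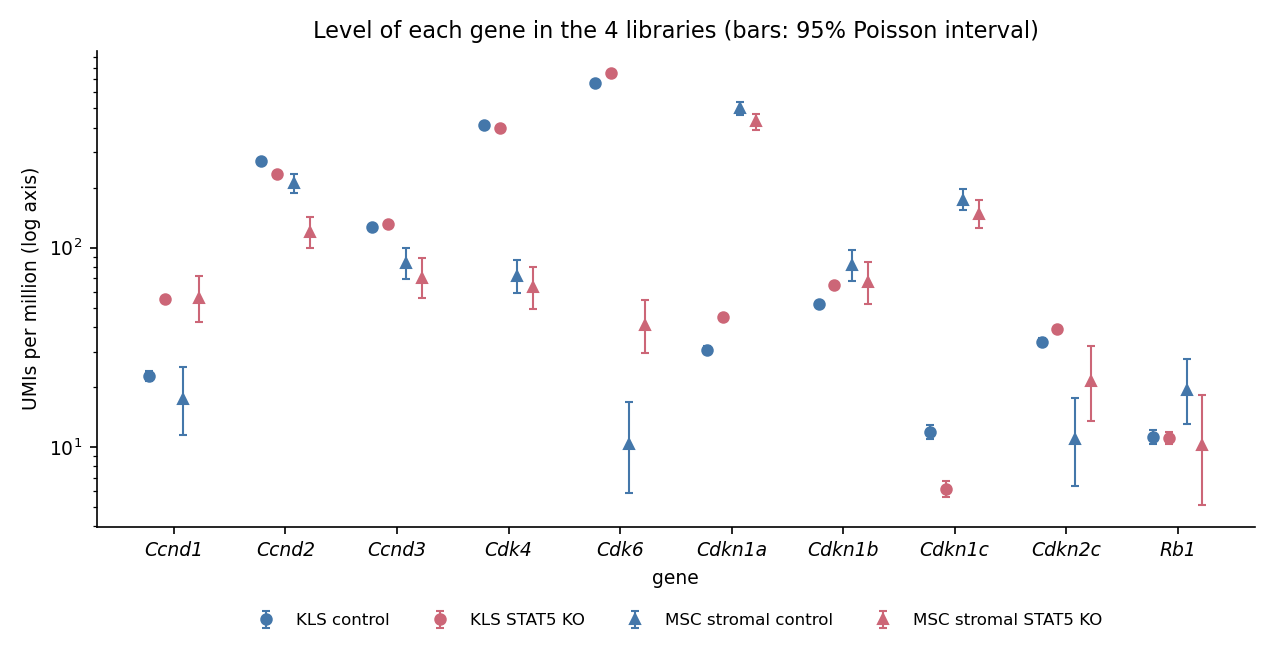
Level of each of the 10 genes in UMIs per 1000000 (log axis) in the KLS libraries (circles) and in the stromal cells of the MSC libraries (triangles), control in blue and STAT5 KO in red, 1 library each. Bars are 95% Poisson intervals of the counts. The STAT5 KO points of Ccnd1 lie at 55.0 and 55.7, above the control points at 22.6 and 17.4.

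The share of cells with a Ccnd1 transcript was higher in STAT5 KO as well. Because the control cells held more UMIs per cell, every cell was thinned to 5000 UMIs, which left out 41 control and 905 STAT5 KO cells. After thinning 9.92% of control and 22.9% of STAT5 KO cells had a Ccnd1 UMI, a difference of 13.0 points (11.5 to 14.5). Unthinned shares were 24.0% and 36.6%. Cells with at least 2 Ccnd1 UMIs were 1.64% and 5.27% of thinned cells. The mean over cells with the transcript was 1.20 UMIs in control and 1.31 in STAT5 KO, both near the least possible value of 1. For Ccnd2 the thinned shares were 69.3% and 63.0%. No class of KLS cells could be taken to lack Ccnd1, so the share that free RNA gives in these libraries was not measured. The lowest thinned share in STAT5 KO was 11.4% (6.21 to 18.7), in cells with Klf1 and Gata1, which held 4.65% in control (0.568 to 15.8).

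Of the kinases, Cdk6 was the most abundant of the 10 genes in KLS cells. It stood at 670.4 CPM in control against 750.1 CPM in STAT5 KO, a log2 ratio of 0.16 (0.14 to 0.18). Cdk4, the other partner of the D cyclins, was at 412.2 and 397.1 CPM, a log2 ratio of -0.05 (-0.08 to -0.03). The sign of the Cdk4 ratio turned when cells were weighted equally or thinned, at 6.8e-05 and 0.031, so no direction is given for it. Rb1, the substrate of both kinases, was at 11.2 and 11.1 CPM, a log2 ratio of -0.02 (-0.18 to 0.13). Both of these genes sat close to the median of the 12074 genes with at least 100 UMIs, which was -0.01.

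The inhibitors did not lie on one side. Cdkn1a, the p53 target that encodes p21, was at 30.6 CPM in control against 44.8 CPM in STAT5 KO, a log2 ratio of 0.55 (0.47 to 0.64). Cdkn1b, which encodes p27, was at 52.0 and 65.1 CPM, a log2 ratio of 0.32 (0.26 to 0.39). Cdkn2c, the Ink4 inhibitor p18, was at 33.7 and 39.1 CPM, a log2 ratio of 0.22 (0.13 to 0.30). Cdkn1c, which encodes p57, was the exception among the 4 inhibitors, at 11.8 CPM in control against 6.13 CPM in STAT5 KO. Its log2 ratio was -0.95 (-1.13 to -0.77), and its thinned share of cells was 6.31% and 3.09%, a difference of -3.22 points (-4.23 to -2.25). Raising both values by 10 CPM brought that log2 ratio to -0.44.

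By a fold of 1.5, 1 of the 10 genes (Ccnd1) was higher in STAT5 KO, where 2.05% of all 12074 genes were, and 1 (Cdkn1c) was lower, where 5.15% were. The choice of genes used this contrast, so nothing is read from these counts. Cdkn1a, at 1.47-fold, lay just under that fold. Counting intervals lay above 0 for 6 of the 10 genes, where 30.3% of all 12074 genes did, and below 0 for 3, where 30.9% did, and the median log2 ratio was 0.10. Ccnd1 held rank 41 from the highest of all 12074 genes.

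Marker genes were then used to place KLS cells in gates. A gate is a range of marker UMIs and not a cell type. The gates were a UMI of each of Hlf, Mecom and Procr (stem genes) with no lineage gate, at least 2 UMIs of Dntt (lymphoid gene), granule genes at 0.5% of UMIs or more, at least 2 UMIs of Pf4 (megakaryocyte gene), Klf1 with Gata1 (erythroid genes), and none of these. The share of cells with the stem genes was 11.9% in control (367 cells) and 4.36% in STAT5 KO (293 cells), and the granule gate held 1.46% and 4.06%. Cells in more than 1 lineage gate, 55 in control and 109 in STAT5 KO, were set aside. Depth can set such shares, and 38.9% of control and 28.5% of STAT5 KO cells had exactly 2 of the 3 stem genes.

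Ccnd1 was higher in STAT5 KO in each of the 6 gates. In cells with the stem genes it was at 21.9 CPM in control against 51.2 CPM in STAT5 KO, a log2 ratio of 1.22 (0.87 to 1.58). In cells of no gate it was at 19.8 and 51.2 CPM, and in Dntt cells at 26.1 and 61.0 CPM. The highest level in either library was in Pf4 cells, at 28.8 and 69.2 CPM, and the lowest in Klf1 and Gata1 cells, at 10.6 and 26.8 CPM. The Klf1 and Gata1 cells rest on 13 and 63 UMIs, and in both libraries the Poisson intervals of Pf4 and Dntt cells overlap. The largest log2 ratio was in granule gene-rich cells, 1.84 (1.13 to 2.65), which rests on 17 control UMIs in 45 cells. Intervals of all 6 gates overlapped. With gates drawn on thinned cells, the ratio in cells with the stem genes was 0.75, the lowest of the gates in that setting. Over 7 alternatives it ranged from 0.75 to 1.42, while the lowest ratio of any gate ranged from 0.75 to 1.22. The cells with the stem genes were thus not the lowest in all of them.

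Ccnd2 had another pattern over the same gates. In cells with the stem genes it was at 307.0 CPM in control against 304.0 CPM in STAT5 KO, with an interval of the log2 ratio of -0.13 to 0.10. It was lower in STAT5 KO in cells of no gate (254.6 and 220.5 CPM), in Dntt cells (279.1 and 247.1 CPM), in Pf4 cells (359.2 and 275.6 CPM) and in Klf1 and Gata1 cells (191.2 and 120.2 CPM). In granule gene-rich cells it was at 178.7 and 200.7 CPM, with an interval that holds 0. In both libraries the stem gene and Pf4 cells held the most Ccnd2, and the granule gene-rich cells and the Klf1 and Gata1 cells held the least.

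Of the 6 gates, Pf4 cells held the highest summed D cyclin level, 569.8 CPM in control against 570.3 CPM in STAT5 KO, although Ccnd2 took 63.0% of it in control and 48.3% in STAT5 KO. Ccnd1 took 5.05% and 12.1%, and Ccnd3 took 31.9% and 39.5%. Ccnd3 itself was at 181.8 and 225.4 CPM in these cells, a log2 ratio with an interval of 0.14 to 0.48. The summed level was 406.1 and 411.2 CPM in cells of no gate and 416.4 and 423.5 CPM in Dntt cells. It was 468.1 and 502.9 CPM in cells with the stem genes and 280.8 and 370.8 CPM in granule gene-rich cells. In Klf1 and Gata1 cells it was 326.0 CPM in control against 268.0 CPM in STAT5 KO, so the sums were not alike in every gate.

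**Figure D2:**
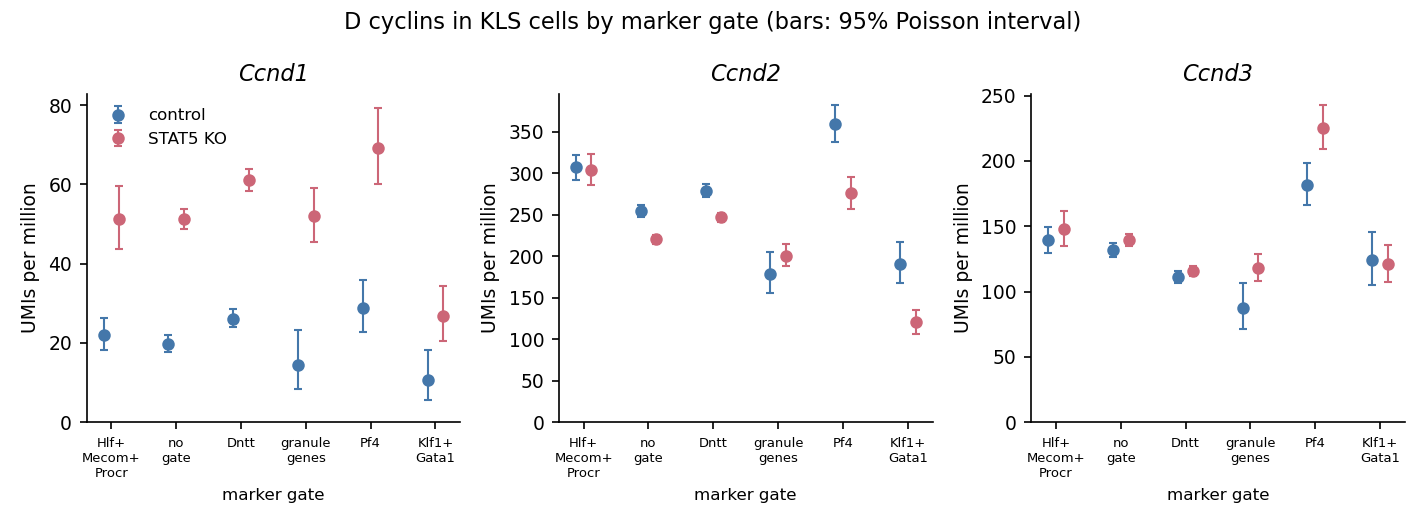
Ccnd1, Ccnd2 and Ccnd3 in UMIs per 1000000 (linear axes from 0, a scale for each gene) in 6 marker gates of the KLS libraries, control in blue and STAT5 KO in red, with 95% Poisson intervals. Ccnd1 is higher in STAT5 KO in each gate, while the Ccnd2 points of the stem gene cells lie at 307.0 and 304.0.

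Cdkn1c was spread widely over the gates. In control it was at 33.7 CPM in cells with the stem genes, 21.5 CPM in Pf4 cells, 13.5 CPM in cells of no gate and 4.44 CPM in Dntt cells. In STAT5 KO the same gates held 28.5, 12.6, 8.03 and 2.76 CPM, so the order was kept. Within cells with the stem genes the log2 ratio had an interval of -0.62 to 0.13, so a difference was not detectable over that gate as a whole. Divided by a Stat5a or Stat5b UMI, the STAT5 KO cells of that gate lay above and below control, as described further on. The log2 ratio was below 0 in cells of no gate (-1.01 to -0.48), in Dntt cells (-1.13 to -0.24) and in Pf4 cells (-1.39 to -0.15). When the STAT5 KO gates were weighted to the gate shares of control, the log2 ratio over all KLS cells moved from -0.95 to -0.55. The granule and erythroid gates held 6 Cdkn1c UMIs or fewer in each library.

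Cdkn1a was highest in control in Dntt cells, at 42.1 CPM, and in STAT5 KO in granule gene-rich cells, at 54.8 CPM. Its log2 ratio lay above 0 in cells of no gate (0.61 to 0.92), Dntt cells (0.17 to 0.41), granule gene-rich cells (0.68 to 1.88) and Pf4 cells (0.34 to 1.66). In cells with the stem genes it was at 22.9 and 28.9 CPM, with an interval that holds 0. Cdkn1b was at 57.9 and 68.6 CPM in cells with the stem genes and at 48.1 and 66.9 CPM in cells of no gate. Cdk6 was at 550.1 CPM in control against 650.9 CPM in STAT5 KO in cells with the stem genes, and the control value was the lowest of the 6 gates. Rb1 went opposite ways in Pf4 cells, at 10.2 and 17.3 CPM, and in Klf1 and Gata1 cells, at 29.4 and 17.8 CPM, on 28 to 52 UMIs each.

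**Figure D3:**
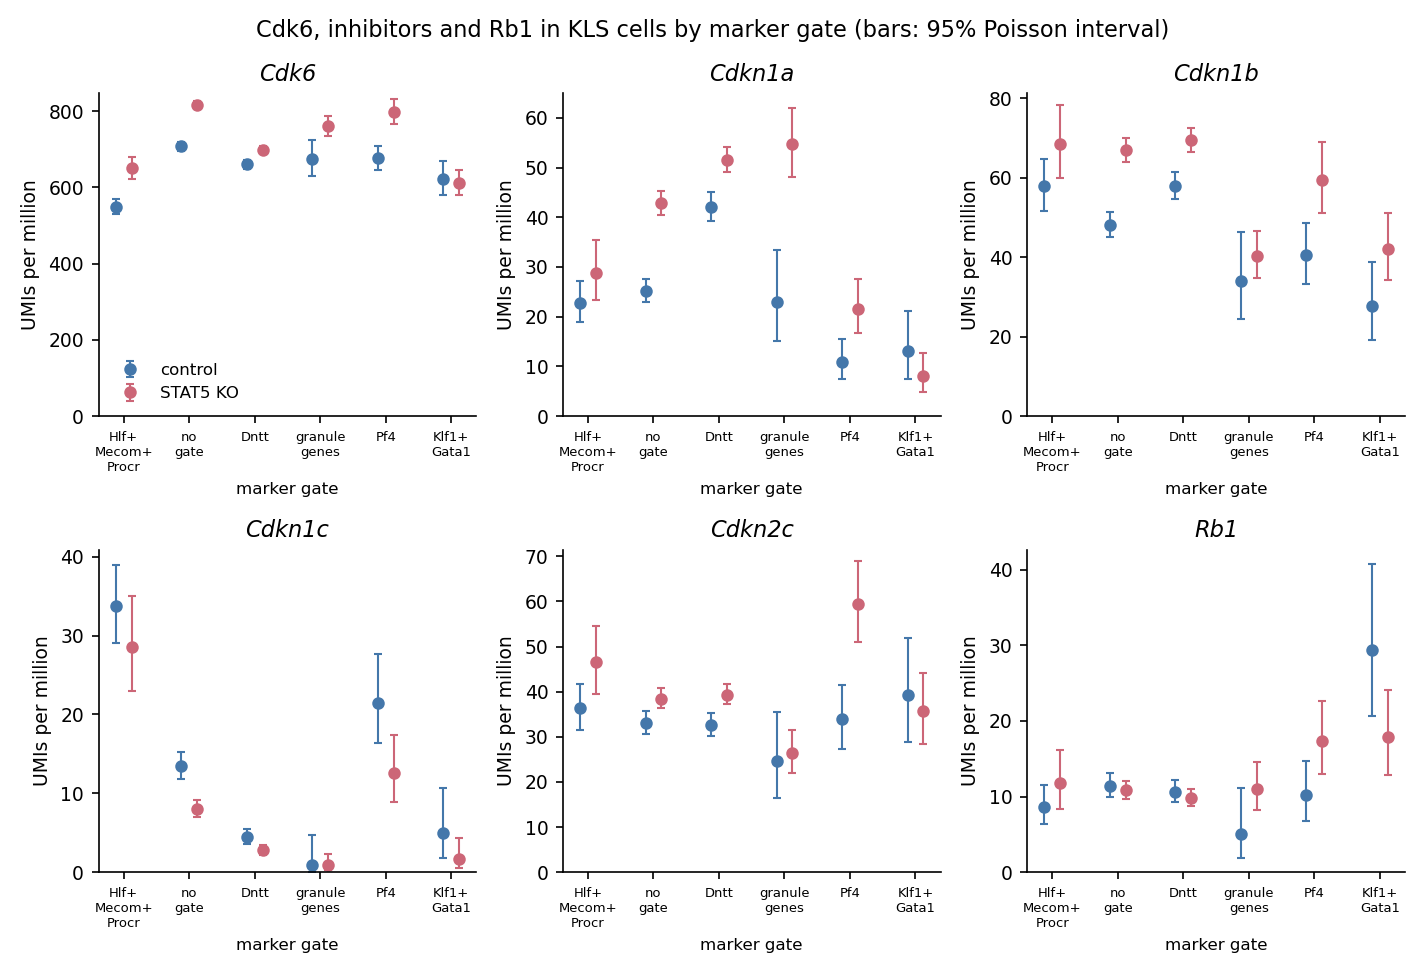
Cdk6, the 4 inhibitors and Rb1 in UMIs per 1000000 (linear axes from 0, a scale for each gene) in the marker gates of the KLS libraries, control in blue and STAT5 KO in red, with 95% Poisson intervals. Cdkn1c is highest in the cells with the stem genes in both libraries, at 33.7 and 28.5.

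Mki67, which encodes a nuclear protein of dividing cells, was used to divide KLS cells into those with and without a UMI of it. It was chosen as a single gene, and of 20 proliferation genes it had the highest log2 ratio between genotypes, 0.39. The median of these 20 genes was 0.06 and the lowest, of Aurka, -0.16, with 14 above 0 and 0 past 1.5-fold. Their summed level was 3358 CPM in control against 3719 CPM in STAT5 KO. The shares below are of cells with a UMI of the gene named, and not of cycling cells. After thinning, a Mki67 UMI was present in 40.2% of control and 54.0% of STAT5 KO cells, a difference of 13.8 points (11.6 to 16.0), and unthinned in 49.3% and 60.5%. A stricter filter, from 500 genes up and with mitochondrial UMIs of 5% or less, brought the difference to 8.63 points. For Top2a, another gene of dividing cells, the thinned shares were 53.3% in control and 70.4% in STAT5 KO, a difference of 17.0 points (14.9 to 19.2). Within a library, the counting interval of cells with Mki67 over those without lay above 0 for Cdk4, Cdk6, Cdkn1a and Cdkn2c and below 0 for Ccnd1, Ccnd2 and Cdkn1c, in control and in STAT5 KO. It held 0 in both for Ccnd3 and Cdkn1b. Cdkn2c was 3.98-fold higher in control cells with Mki67 than in those without (45.2 against 11.3 CPM) and 2.82-fold higher in STAT5 KO cells (47.2 against 16.7 CPM), with log2 intervals of 1.78 to 2.21 and 1.33 to 1.66 that do not overlap. Ccnd1, Ccnd2 and Cdkn1c lay the other way: Ccnd1 was 1.94-fold higher in control cells without Mki67 and 1.92-fold higher in STAT5 KO cells without it. For Ccnd2 these values were 1.71-fold and 1.64-fold, and for Cdkn1c 2.04-fold and 2.14-fold. Ccnd3, Cdkn1b and Rb1 were within 1.17-fold between cells with and without Mki67 in both libraries. Cells with a Mki67 UMI were deeper, with medians of 20226 and 12831 UMIs in control and STAT5 KO against 9586.5 and 6941.5 without it, and the part of depth in this split was not tested.

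Ccnd1 was higher in STAT5 KO in cells with and without Mki67. Cells with Mki67 held 17.1 CPM in control against 44.2 CPM in STAT5 KO, so that it was 2.58-fold higher (2.36 to 2.83) in STAT5 KO. Cells without it held 33.2 and 85.1 CPM, so that it was 2.56-fold higher (2.33 to 2.82). Over all cells it was 2.43-fold higher. Cdkn1c had log2 ratios of -0.89 (-1.14 to -0.65) with Mki67 and -0.82 (-1.09 to -0.56) without it. Cdkn2c was at 45.2 and 47.2 CPM with Mki67, an interval of -0.03 to 0.15, and at 11.3 and 16.7 CPM without it, an interval of 0.30 to 0.82.

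**Figure D4:**
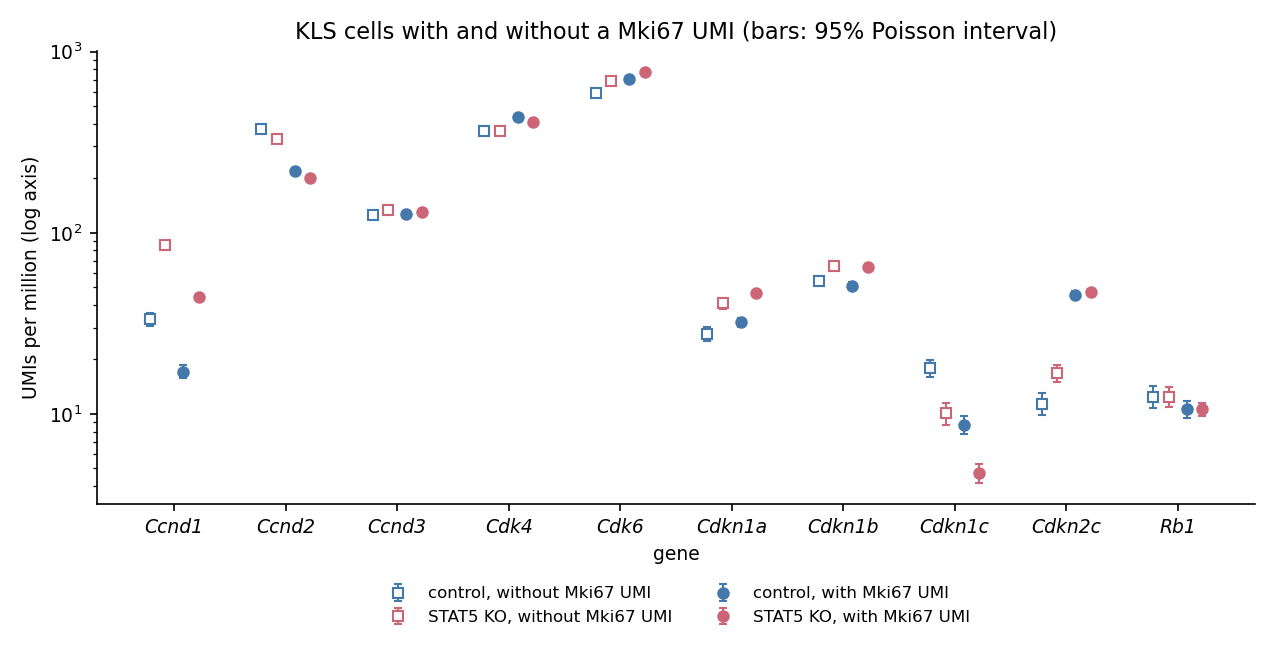
Level of each of the 10 genes in UMIs per 1000000 (log axis) in KLS cells without (open squares) and with (filled circles) a Mki67 UMI, control in blue and STAT5 KO in red, with 95% Poisson intervals. Ccnd1 lies higher in STAT5 KO in both classes of cells, and Cdkn2c lies higher with Mki67 in both libraries.

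The STAT5 KO library held 454 cells with a Stat5a or Stat5b UMI, and these differed from the other 6272 at a like depth, a median of 10195 and 10075.5 UMIs. Ccnd2 was at 400.1 CPM in the cells with such a UMI and at 220.6 CPM in those without, a log2 ratio of 0.86 (0.79 to 0.92), beside 272.1 CPM in control. Cdkn1c was at 22.1 and 4.84 CPM, a log2 ratio of 2.19 (1.88 to 2.49), beside 11.8 CPM in control. Cdk6 lay the other way, at 590.3 and 763.0 CPM beside 670.4 CPM in control. Ccnd1 was at 61.7 and 54.5 CPM, both of them above the 22.6 CPM of control. Of STAT5 KO cells, 24.9% of those with the stem genes, 7.93% of those of no gate and 1.68% of Dntt cells had such a UMI. The classes therefore also differ in their mix of gates. The UMI was used here only to divide the cells, and whether such cells kept a working Stat5 gene was not tested.

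Among cells of no gate, 248 had such a UMI and 2880 had none, at median depths of 9474.5 and 8152 UMIs. Ccnd2 was at 411.3 CPM in the former and 201.9 CPM in the latter, beside 254.6 CPM in control. Cdkn1c was at 18.6 and 7.00 CPM, beside 13.5 CPM in control, and Cdk6 at 571.1 and 840.0 CPM, beside 707.6 CPM in control. Among Dntt cells, 43 had such a UMI and 2510 had none, at median depths of 16246 and 11410.5 UMIs. Ccnd2 differed less there, at 298.1 and 245.9 CPM, a log2 ratio of 0.28 (0.08 to 0.47). Ccnd1 was at 50.6 and 61.3 CPM in Dntt cells, with an interval of the log2 ratio of -0.79 to 0.19. In cells with the stem genes, 73 had a Stat5a or Stat5b UMI and 220 had none, at median depths of 7975 and 10483.5 UMIs. Ccnd2 was at 540.0 CPM in the former and 236.6 CPM in the latter, on either side of the 307.0 CPM of control. Cdkn1c was at 71.2 and 16.4 CPM, on either side of the 33.7 CPM of control. Cdk6 was at 350.2 and 736.9 CPM, again on either side of the 550.1 CPM of control. Ccnd1 was at 61.4 and 48.3 CPM, against 21.9 CPM in control. The 304.0 CPM of Ccnd2 over all STAT5 KO cells of this gate was thus a sum over cells that lay above and below control. The same holds for the Cdkn1c level of this gate.

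In the control library the same division had another outcome. Of the control cells with the stem genes, 289 had a Stat5a or Stat5b UMI and 78 had none, at median depths of 14966 and 8049.5 UMIs. Ccnd2 was at 289.5 and 419.5 CPM, so it was higher in the cells without the UMI. Cdkn1c was likewise at 28.1 and 69.7 CPM, and Cdk6 at 581.5 and 348.5 CPM. Ccnd1 was at 19.6 and 36.9 CPM, a log2 ratio of -0.91 (-1.55 to -0.24), so it too was higher in control cells without the UMI. In both libraries, among cells with the stem genes, the class of lower depth was thus the one with more Ccnd2 and Cdkn1c and less Cdk6. Over all control cells this was also the class of lower depth, at medians of 16750.5 UMIs with the Stat5 UMI and 9623 without. There Ccnd2 was at 264.1 and 321.0 CPM, Cdkn1c at 11.4 and 14.5 CPM and Cdk6 at 687.6 and 565.5 CPM. Ccnd1 was at 21.0 and 32.3 CPM in the same cells. In control cells of no gate the class of lower depth had more Ccnd2 and less Cdk6, while the interval of Cdkn1c held 0. In STAT5 KO cells of no gate the deeper class was the one with more Ccnd2 and Cdkn1c and less Cdk6. Over all STAT5 KO cells the depths were alike. The part of depth in this division was not tested.

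The other genes of the G1 pathway were taken from a list of 48 genes by role, of which 46 had at least 100 UMIs in KLS cells. By a fold of 1.5, 1 was higher in STAT5 KO and 0 were lower, together 2.17% of them, where 7.21% of all genes passed in either direction. The counts of this list were not tested, and log2 ratios were above 0 for 27 genes and below 0 for 19, with a median of 0.04. The median of all 12074 genes was -0.01, and nothing is read from counts by sign. The gene past that fold was Bcl6, a repressor known to act on D cyclin genes, at 4.48 CPM in control against 7.54 CPM in STAT5 KO, a log2 ratio of 0.75 (0.53 to 0.98).

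By role, the 5 genes of the cyclin E and Cdk2 step all had ratios above 0, among them Cks1b at 0.08 and Cdk2 at 0.03. The intervals of Ccne1 (-0.12 to 0.23) and Cdk2 (-0.04 to 0.09) hold 0. Of 10 E2F and partner genes 8 were above 0, and among these the intervals of E2f5 and E2f7 hold 0. Tfdp1 was at 0.13 and E2f4 at -0.02, while E2f2 and E2f3, named after their values were seen, were at 0.51 and 0.52. The pocket protein genes Rbl1 and Rbl2, relatives of Rb1, were at 0.13 and -0.04. All 3 genes of the CDK-activating kinase were below 0, with Ccnh at -0.16 and Mnat1 at -0.07. The interval of Mnat1 (-0.15 to 0.01) holds 0. Of the upstream regulators, Trp53, which encodes p53, was at 0.03 and Myc at -0.07. Skp1a and Ddb1, parts of ubiquitin ligases that destroy cyclins and inhibitors, were at 0.18 and 0.19. Fbxo4, of the same role, was at -0.41, the lowest of the 46 genes, and Mycn, an upstream regulator, at -0.36. Fbxo4 and Mycn were also named after their values were seen. Rbbp4 and Lin9, of the MuvB complex, were at -0.01 and 0.11.

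The Ink4 relatives of Cdkn2c were unlike each other in detection. Cdkn2d was at 51.1 and 44.4 CPM, a log2 ratio of -0.20 (-0.28 to -0.13). Cdkn2b had no UMI in either KLS library. Cdkn2a, named after its values were seen, had no UMI in the 3085 control cells, which allows a share of up to 0.0972% of cells with a UMI, and 36 UMIs in 24 STAT5 KO cells, of which 7 were in 1 cell. Its level was 0.471 CPM in STAT5 KO (0.330 to 0.652), and 3 counts in control would be 0.0587 CPM.

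**Figure D5:**
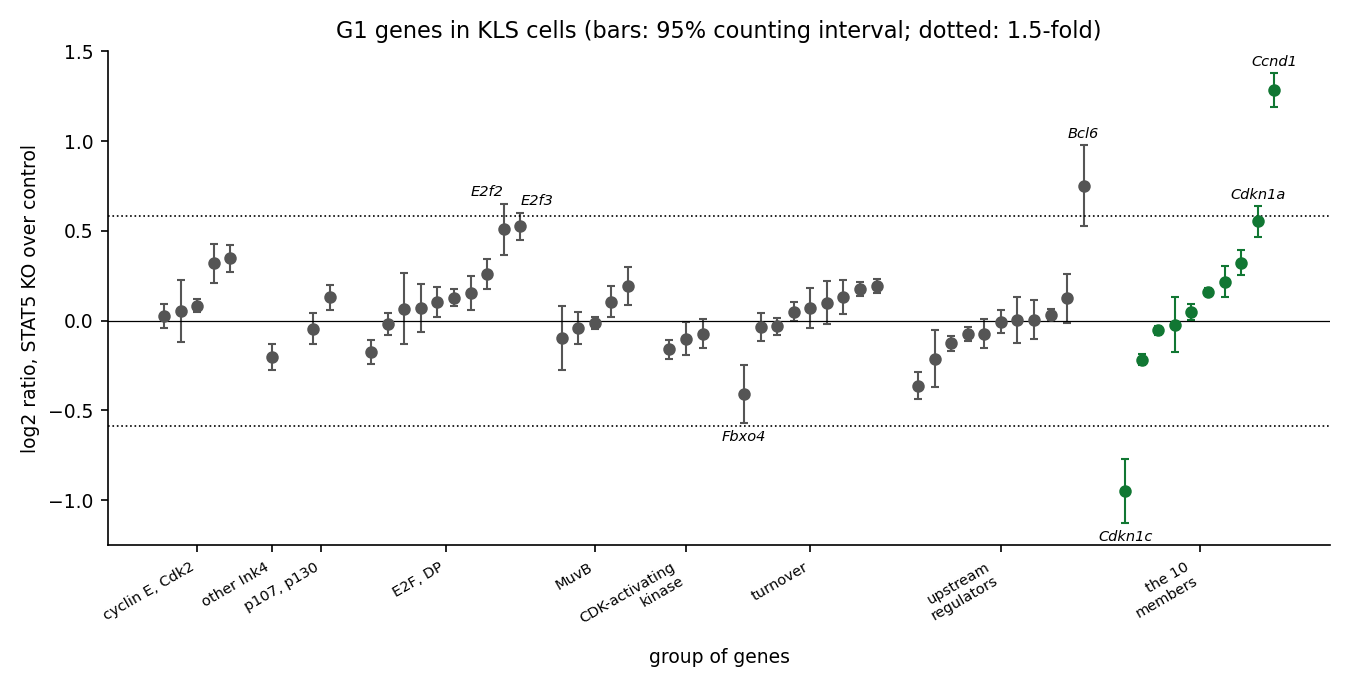
Log2 ratio of STAT5 KO over control in KLS cells for the 46 other G1 genes with at least 100 UMIs, grouped by role (grey), and for the 10 genes described here (green), with 95% counting intervals. Dotted lines mark 1.5-fold, which Bcl6 passes among the grey points at 0.75 and Ccnd1 and Cdkn1c pass among the green points.

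Over 12 values, the 6 gates in each of the KLS libraries, 10148 genes were ranked by their likeness to Ccnd1. The 5 most alike by Pearson correlation of log2 values were Smarcc1 (0.957), Fam133b (0.947), Eif4g3 (0.933), Pcm1 (0.929) and Kpna4 (0.927). These points share libraries and depth, so the correlations are descriptions, and the genes themselves differed between genotypes by log2 ratios of 0.30 to 0.40, well under the 1.28 of Ccnd1. Npdc1 (0.989), Fstl1 (0.986) and Itsn1 (0.986) were most like Cdkn1c, with log2 ratios between genotypes of -0.58, -0.76 and -0.68.

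Ccnd1 and Cdkn1c lie on the same chromosome in the mouse, Ccnd1 at chr7:144929931-144939925 and Cdkn1c at chr7:143458339-143461050 (GENCODE M21, GRCm38, both on the minus strand), with 1468881 bases between them. Most neighbours within 1000000 bases differed by less than 1.5-fold between genotypes. Of 7 genes near Ccnd1 with at least 100 UMIs, 0 were 1.5-fold higher in STAT5 KO, where 2.05% of all genes were, and 1, Bc1, was lower with a log2 ratio of -0.66, where 5.15% were. Of 18 genes near Cdkn1c, 0 were higher and 2 were lower: Phlda2, at 7.33 CPM in control against 3.67 CPM in STAT5 KO, and Slc22a18, with a log2 ratio of -0.65. Nearby, Tssc4 and Nap1l4 had log2 ratios of 0.04 each and Cars of 0.40, while the long RNA Kcnq1ot1 was at 454.6 and 448.2 CPM, a log2 ratio of -0.02. Nothing is read from these few neighbours, which were named after their values were seen. LTO1 overlaps Ccnd1 on the other strand and was at 13.5 CPM in both libraries. The strand rule of the counting is not given in the sources used here, so reads of overlapping genes, also Bysl with Ccnd3 and Tspan31 with Cdk4, cannot be told apart with certainty.

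In the MSC libraries, 417 control and 262 STAT5 KO cells were stromal by marker genes. Stat5a was at 45.0 and 60.4 CPM in them and Stat5b at 56.0 and 50.1 CPM, with intervals of the log2 ratio that hold 0 for both. Between tissues of control mice, Cdk6, Cdkn1a, Cdkn1c and Cdk4 had the largest log2 ratios of the 10 genes. Cdk6 was 65.1-fold lower in stromal than in KLS cells (10.3 against 670.4 CPM), and Cdk4 was 5.72-fold lower (72.0 against 412.2 CPM). Cdkn1a was 16.3-fold higher in stromal cells (498.5 CPM) and Cdkn1c 14.7-fold higher (173.7 CPM), while Ccnd1, at 17.4 CPM, differed by a log2 ratio of -0.38 (-0.99 to 0.17). By a fold of 1.5, 4 of the 10 genes were higher in stromal cells, where 25.4% of 11662 genes were, and 4 were lower, where 44.8% were (70.2% in either direction). Mki67 had 0 UMIs in control stromal cells and 3 in STAT5 KO stromal cells.

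In stromal cells Ccnd1 was at 17.4 CPM in control (27 UMIs) and 55.7 CPM in STAT5 KO (60 UMIs), a log2 ratio of 1.68 (1.00 to 2.39). These UMIs came from few cells, 22 in control (5.28%, 3.34 to 7.88) and 24 in STAT5 KO (9.16%, 5.96 to 13.3). The intervals of these shares overlap. The mean over cells with a Ccnd1 UMI was 1.23 UMIs in control and 2.50 in STAT5 KO. Ccnd2 was at 209.7 and 119.8 CPM, a log2 ratio of -0.81 (-1.11 to -0.51). Cdk6 was at 10.3 CPM (16 UMIs) and 40.9 CPM (44 UMIs), a log2 ratio of 1.99 (1.13 to 2.91). Cells rich in cartilage genes held 12.4% of stromal UMIs in control and 39.7% in STAT5 KO, and the summed level of the 8 cartilage markers, all of them detected, was 6222 and 25970 CPM. Ccnd1 was highest in those cells in both libraries, at 31.1 and 81.8 CPM, and was at 5.02 and 21.4 CPM in Cxcl12-rich cells and 19.7 and 45.4 CPM in the other stromal cells. The interval of the ratio lay above 0 in the cartilage gene-rich cells (0.13 to 2.94) and in the other stromal cells (0.24 to 2.18), and held 0 in Cxcl12-rich cells, which rest on 2 and 4 UMIs. With the barcodes that hold more UMIs in another library kept, the log2 ratios of Ccnd1 and Cdk6 in stromal cells were 1.64 and 1.71, and that of Ccnd1 in KLS cells was 1.29.

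Of the 10 genes, 3 were 1.5-fold or more higher in STAT5 KO stromal cells, where 8.77% of 9809 genes were, and 2 were lower, where 14.9% were. Nothing is read from these counts. Ccnd1, Cdk6 and Cdkn2c (10.9 and 21.4 CPM) were the higher ones, and Ccnd2 and Rb1 (19.3 and 10.2 CPM) the lower ones. The intervals of Cdkn2c and Rb1 hold 0. Ccnd3, Cdk4, Cdkn1b and Cdkn1c differed by log2 ratios of -0.29 to -0.19, with intervals that hold 0. Cdkn1a was at 498.5 and 429.0 CPM, a log2 ratio of -0.22 (-0.39 to -0.05). The median of all 9809 genes was -0.11.

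The MSC libraries also held 122 control and 92 STAT5 KO cells with erythroid markers, although the sort set out to leave out such cells. These held Cdkn1b at 1333 and 1509 CPM, in 67.2% and 59.8% of cells, against 81.7 and 66.9 CPM in stromal cells. Ccnd1, Ccnd2, Cdk4, Cdk6 and Cdkn1c had no UMI in them in either library. Cdkn1b, which is known to build up as red cell precursors leave the cycle, was thus the most abundant of the 10 genes in these cells. Mki67 was at 602.2 and 747.5 CPM there, and Top2a, another gene of dividing cells, at 8.03 CPM in control and 0 in STAT5 KO.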

How the data were processed

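The 4 groups had 1 library each. The deposited values are counts of UMIs per gene and cell barcode, which the authors made with Cell Ranger on GRCm38 or mm10, per the submitters' processing notes (software version 3.1.0, per the file headers). The strand rule and cell calling are not given in the sources used here.

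Cells entered with 200 genes or more and mitochondrial UMIs of 10% or less. The highest Scrublet scores (scanpy 1.11.5) were left out as doublets at 0.8% per 1000 barcodes, 112 and 451 barcodes in the KLS and 3 and 1 in the MSC libraries (control, STAT5 KO), since the automatic threshold marked at most 1 per library. Barcodes with more UMIs in another library were left out. The libraries held 55138419 (KLS control), 82466835 (KLS STAT5 KO), 1874023 (MSC control) and 1270763 (MSC STAT5 KO) UMIs. No correction for free RNA was made. In KLS cells, 0.194% (control) and 0.0892% (STAT5 KO) had a UMI of the stromal gene Col1a1, against 59.5% and 49.5% in the MSC libraries.

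Counts of the cells compared were added up and expressed per 1000000 UMIs (CPM). With 1 library per group no test was made. Sums carry exact Poisson, shares exact Clopper-Pearson and ratios exact conditional binomial 95% intervals (Python 3.11.15, scipy 1.17.1), which cover counting error only. A limit for 0 is 3 counts. Stromal cells had at least 3 UMIs of stromal markers, and cells with 1% or more of UMIs from Cxcl12 or cartilage genes were called rich in them. The 10 genes, the gene lists and the gates were chosen with earlier results of these data known. Named genes are the 10, list genes past 1.5-fold, the 2 of each role with most UMIs, and those most like Ccnd1 (5) and Cdkn1c (3) among genes with at least 500 UMIs, on log2(CPM + 10). The ratio step was tested on simulated data. Alternatives covered cell filters, doublets, shared barcodes, scaling (edgeR 4.0.16 TMM factors among them), added CPM, gates, thinning and the cells summed.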

Additional observations from a re-analysis of the deposited data

Results flagged for a closer look

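Cdkn1a went opposite ways in the populations: its log2 ratio of STAT5 KO over control was 0.55 in KLS cells and -0.22 in stromal cells. The difference between the populations was not tested.

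Rb1 went opposite ways in KLS gates, with a log2 ratio of 0.76 in Pf4 cells and -0.72 in Klf1 and Gata1 cells. This difference was not tested either, and it rests on 28 to 52 UMIs per gate and library.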

How the results depend on the processing

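With 1 library per group, no library could be left out, and no value below was tested. No paired analysis was possible because each group has 1 library and no result comes from a test. The Ccnd1 log2 ratio in KLS cells kept its direction in all 10 alternatives, with 1.00 when 10 CPM was added as its lowest value, and its share of D cyclin UMIs differed by 8.26 points on thinned cells. Ccnd2 stayed below 0 in all 10, at -0.16 with the stricter cell filter, -0.28 with cells weighted equally, -0.17 with gates weighted to control, -0.27 on thinned cells and -0.30 without the STAT5 KO cells that hold a Stat5 UMI. With gates drawn on thinned cells, the lowest Ccnd1 log2 ratio over the gates was 0.75, in cells with the stem genes. The Mki67 difference was 8.63 points with the stricter filter, 16.9 with a UMI of Mki67 or Top2a and 11.2 unthinned. The count of G1 list genes past 1.5-fold, 1 in the report, was 3 with cells weighted equally, 3 on thinned cells, 2 from 20 UMIs up and 2 without the cells with a Stat5 UMI, 0 with 10 CPM added and 0 past 2-fold. Cdk4 turned from -0.05 to 6.8e-05 with cells weighted equally and to 0.031 on thinned cells. Cdkn1c in KLS cells ranged from -1.29 to -0.44, and Ccnd1 in stromal cells from 1.07 to 1.78. Of 212 alternative values of other single genes and of gates, 193 lay within the counting interval of the main value, 17 lay outside it and 2 turned in sign. This count leaves out the main results, such as Ccnd1 and Ccnd2 in KLS cells. Of their 10 alternatives each, 1 of Ccnd1 and 5 of Ccnd2 lay outside the interval. So did 3 of 6 for the Mki67 difference and 0 of 10 for Ccnd1 in stromal cells. The cause of these shifts was not tested. Leaving out STAT5 KO cells with a Stat5 UMI, leaving out cartilage gene-rich cells and weighting stromal classes to control were chosen after seeing the data. In stromal cells depth limits Cdkn2c and Rb1, which rest on 11 to 30 UMIs.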
